A study of Mus musculus with 4 samples.

Results

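The RNA of 10 transcription factors known for their part in epithelial-mesenchymal transition (EMT) was followed in NMuMG cells, an epithelial line from the normal mouse mammary gland. They were chosen by gene symbol: the zinc finger repressors Zeb1, Zeb2, Snai1 and Snai2, the helix-loop-helix factors Twist1, Tcf3 and Tcf4, and the partner factors Hmga2, Ets1 and Prrx1. Each had 1 transcript cluster among the 14847 genes that could be named at gene level. At exon level the members had 113 of 209279 named probesets, each of which covers an exon or a part of one. All cells were grown with serum, insulin, penicillin and streptomycin. Cells were left untreated or were given 1 ng/ml recombinant human TGF-beta1 for 24 h, and each condition had 1 array. Gene-level and exon-level values describe the same 2 arrays in different detail, so no difference below has a replicate check and no p-value is given. These are bulk samples of a cell line, in which fewer cells with a transcript and less transcript per cell cannot be told apart.

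Zeb and Snail proteins bind E-box sequences in DNA and repress epithelial genes such as that of E-cadherin, the main adhesion protein of epithelial cells. Tcf3 and Tcf4 are E proteins, which bind E-boxes as dimers with other helix-loop-helix proteins, Twist1 among them, and are held off DNA by the Id proteins. TGF-beta acts through Smad proteins, and the chromatin protein Hmga2 is known as a Smad partner at the Snai1 gene.

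Differences were taken on the scale of log2(intensity + 1), with untreated subtracted from TGF-beta. A gene or probeset was at level if its brighter array reached the table's overall median (124 for genes, 265 for probesets), and it was called higher or lower at a log2 difference of at least 1, which is 2-fold. Pairs of intensities give the untreated value first and the TGF-beta value second. Intensities of different genes come from different probes and are not ranked against each other, apart from a search for the genes with the most similar pair of intensities. The columns differed as a whole: the median difference of the 9159 genes at level was −0.27, and it was −0.14 after centring, −0.01 after quantile normalization and −0.01 after the trend of difference on mean level was removed. Members' differences are therefore also given above or below that median.

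Among the members with higher values Snai1 had the largest difference, followed by Zeb2 and Zeb1. At gene level Snai1 and Zeb2, 2 of the 9 members at level, had values at least 2-fold higher with TGF-beta, against 2.28% of all genes at level. None was at least 2-fold lower, against 8.7%. With the trend removed 3 members were higher (3.62% of all) and none lower (4.64%), and after quantile normalization these were 3 (3.7%) and none (4.4%). The members' median difference was 0.28, and 7 of the 9 lay above 0, where 27.7% of all genes at level did. Prrx1 was the member with the largest lower value, −0.79, where Zeb1 had 0.77. Relative to the median of genes at level these were −0.51 and 1.05, so the difference of Prrx1 was then the smaller in size. Twist1 lay below the level rule in both arrays. Of the members' 103 probesets at level, 16 were at least 2-fold higher (15.5%, against 3.55% of all named probesets at level) and 3 at least 2-fold lower (2.91%, against 11.6%), and 73 lay above 0, against 32.6% of all. All 16 higher probesets belonged to Snai1, Zeb2 and Zeb1, and all 3 lower ones to Prrx1. The 16 became 26 with the trend removed (6.61% of all) and 25 after quantile normalization (6.44%). With the trend removed 1 probeset was still at least 2-fold lower (6.46% of all) and 89 lay above 0 (46.7% of all). The level rule needs 1 array only, so a dim probeset can pass it through the array in which it is high. Of the 16 higher probesets 4 (2 of Snai1, 1 each of Zeb2 and Zeb1) passed it through the TGF-beta array alone, and all 3 lower ones through the untreated array alone. Of the 93 member probesets at level in both arrays, 12 were at least 2-fold higher and none was at least 2-fold lower. This split was not made over all named probesets, so these counts have no share to be set against.

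**Figure D1:**
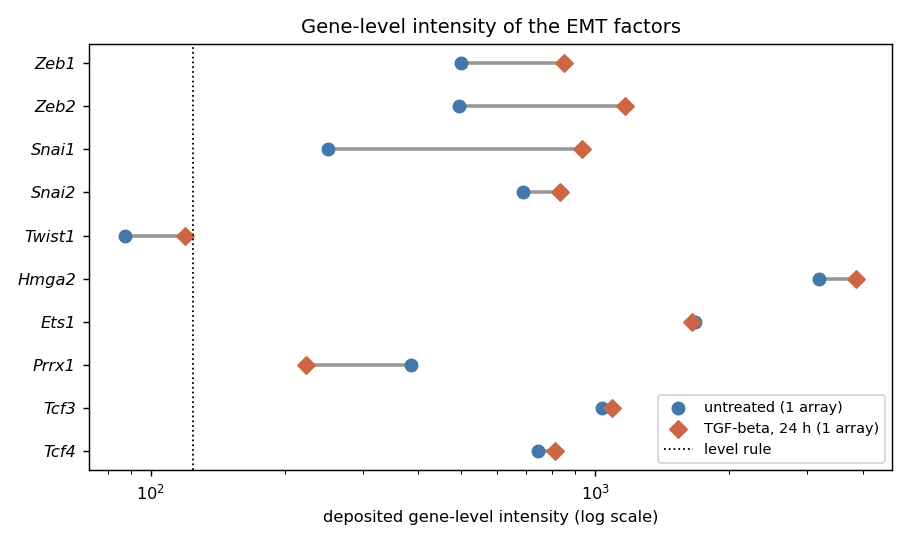
Deposited gene-level intensity (log axis) of the 10 factors in the untreated array (circles) and the TGF-beta array (diamonds), with the level rule of 124 as a dotted line. Snai1, Zeb2 and Zeb1 have the widest gaps to the right, Prrx1 has a gap to the left, and both Twist1 values lie below the rule.

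Promoter sequences of the pair of members past the size rule are shown because both were higher together. They are RefSeq windows of build GRCm38.p6, from 250 bases before to 50 after a transcription start, written on the gene's own strand. The motifs searched were the E-box CAGGTG, with its other strand CACCTG, and the Smad box CAGAC, with its other strand GTCTG. These motifs do not overlap in the windows shown, and capitals mark a match.
Snai1, chr2:167537945-167538244, plus strand: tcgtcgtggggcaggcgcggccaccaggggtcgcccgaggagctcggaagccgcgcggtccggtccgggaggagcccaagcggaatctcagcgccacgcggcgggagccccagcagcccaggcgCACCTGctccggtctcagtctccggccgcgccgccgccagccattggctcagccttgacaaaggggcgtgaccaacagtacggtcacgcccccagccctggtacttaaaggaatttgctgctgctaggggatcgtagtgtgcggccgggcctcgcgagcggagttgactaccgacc
Zeb2, chr2:45117393-45117692, minus strand: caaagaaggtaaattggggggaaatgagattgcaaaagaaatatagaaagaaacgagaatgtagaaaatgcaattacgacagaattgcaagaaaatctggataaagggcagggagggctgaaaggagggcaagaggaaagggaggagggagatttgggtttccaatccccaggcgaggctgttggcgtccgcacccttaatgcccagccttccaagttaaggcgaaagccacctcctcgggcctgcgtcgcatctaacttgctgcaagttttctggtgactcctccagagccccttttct
The Snai1 window held 1 E-box, which began 126 bases before the start, and no Smad box. The Zeb2 window, the outermost of 4 annotated for that gene, held neither, nor did the other 3. The search left out the windows of 1 chromosome and covered 6 of the members, 9 windows in all. Zeb1, Tcf4, Snai2 and Ets1 were not searched, so nothing is said of their motifs. Snai1 was the only member among these 6 with the E-box, and Prrx1 and Twist1 were those with a Smad box. Of all 32851 windows, 20.2% held the E-box and 49.6% the Smad box, so both are common. A match is a description of the letters and says nothing about binding in these cells.

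Snai1 (transcript cluster 6883321), the Snail repressor, had a gene-level intensity of 249.7 in untreated cells and 936 after TGF-beta. This is a 3.74-fold higher value, a log2 difference of 1.90, or 2.18 above the median of genes at level, and 99.5% of genes at level had a lower difference. At exon level its 4 probesets had 577, 436, 215 and 176 in untreated cells. With TGF-beta the same probesets had 2817, 1923, 616 and 802. Each probeset was higher with TGF-beta, and the 2 dimmer ones were at level through that array alone. The 4 log2 differences ran from 1.51 to 2.29, with a median of 2.16 ± 0.35 (SD between probesets, which is not a spread between cultures).

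Snai2 (transcript cluster 6839624), the related Slug repressor, differed far less, from 686 untreated to 832 with TGF-beta (1.21-fold, log2 difference 0.28). Its 4 probesets at level had 1504, 1090, 798 and 396 without TGF-beta and 1709, 1544, 908 and 478 with it. Each was higher by a small amount, between 0.18 and 0.50 on the log2 scale (median 0.23 ± 0.15 SD). The other probeset was dim at 93.3 and 92.6. Relative to the median of genes at level the gene-level difference of Snai2 was 0.55.

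Zeb2 (transcript cluster 6886356), a repressor with zinc finger clusters at both ends, had 493 in untreated cells and 1165 after TGF-beta at gene level. The value was 2.36-fold higher (log2 difference 1.24, or 1.51 above the median of genes at level). All 13 of its probesets were at level and all were higher, 9 of them at least 2-fold; 1 of these was at level through the TGF-beta array alone. They ran from 212 to 1138 in untreated cells and from 516 to 3205 with TGF-beta. The log2 differences lay between 0.87 and 1.49 (median 1.18 ± 0.21 SD), and no probeset departed from the gene. The probeset with the largest difference was also the brightest (1138 and 3205), and that with the smallest had 464 and 847.

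Zeb1 (transcript cluster 6858575), its paralog, had 498 without and 850 with TGF-beta, a 1.71-fold higher value. The log2 difference of 0.77 did not reach the size rule, but it was 1.05 above the median of genes at level. It was 1.13 after quantile normalization and 1.15 with the trend removed, both past the rule. Of 14 probesets 12 were at level, and all 12 were higher, between 0.34 and 1.07 (median 0.90 ± 0.25 SD), with 3 at least 2-fold. Of the 12, 3 were at level through the TGF-beta array alone, a passage that favours higher values, and the other 9 were higher too, 2 of them at least 2-fold. The brightest probeset went from 2089 to 3968, and the one with the largest difference from 1429 to 2991. That with the smallest difference had 216 and 273. The 6 brighter of these 12 probesets had a median difference of 0.95 and the 6 dimmer ones 0.62. The 2 probesets below the level rule differed by 0.25 (60.2 and 71.7) and by −0.30 (44.1 and 35.6). Across all 14 the difference correlated with the log2 untreated intensity (Pearson r = 0.79, Spearman rho = 0.66), a description over probes of 1 transcript on the same arrays.

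Snai1, Zeb2, Zeb1 and Snai2 were the members whose probesets at level, 4 or more each, were all higher. Of the 8791 genes with at least 4 probesets at level, 10.3% had all of them higher and 25.9% all of them lower. This tally includes probesets at level through the TGF-beta array alone, which favours higher values: 2 of Snai1, 1 of Zeb2 and 3 of Zeb1. At level in both arrays were 2 probesets of Snai1, 12 of Zeb2, 9 of Zeb1 and 4 of Snai2, and these were all higher. The shares over all genes were not recomputed for such probesets.

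**Figure D2:**
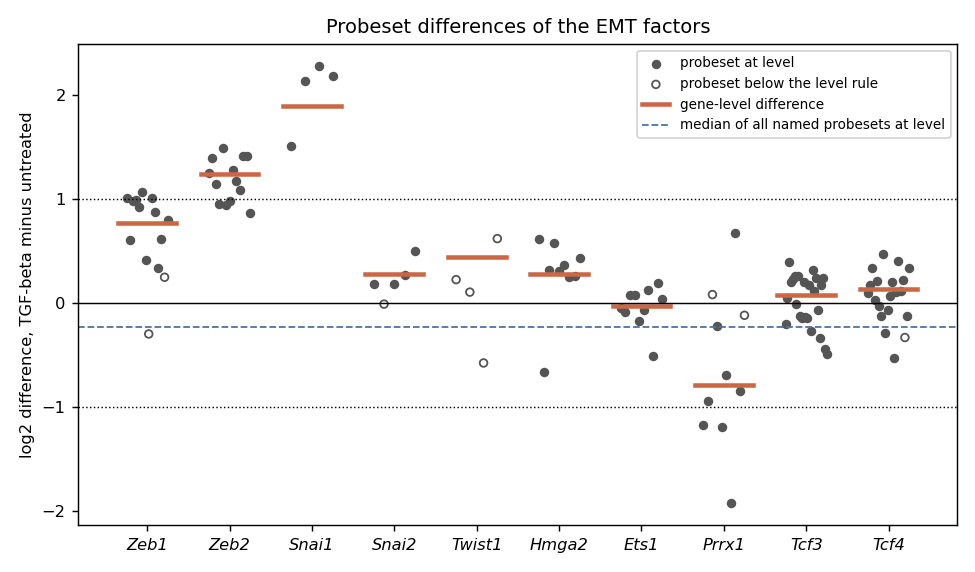
Log2 difference (TGF-beta minus untreated) of every probeset of the 10 factors, as filled points at level and open points below the level rule, with the gene-level difference as a bar. The dashed line is the median of all named probesets at level (−0.23) and dotted lines mark 2-fold. Probesets of Snai1 and Zeb2 lie together near or above the upper dotted line, whereas those of Prrx1 spread from −1.93 to 0.67.

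Genes whose pair of log2 intensities lay nearest to these 3 factors, by Euclidean distance over the 2 arrays, were sought among 6369 candidates, each at level and with 75% or more of its 3 or more probesets moving the same way as the gene. Nearest to Snai1 were the calcium pump Atp2b4 (250.03 and 963, distance 0.04), the adaptor Sh3bp2 (distance 0.16) and the lymphatic growth factor Vegfc (distance 0.23). Nearest to Zeb2 were the ephrin Efnb1 (488 and 1161, distance 0.02), the adaptor Pik3ap1 (distance 0.02) and the Wnt receptor Fzd2 (distance 0.11). Nearest to Zeb1 were the high-mobility-group factor Sox4 (483 and 844, distance 0.04), the cell death gene Bmf (distance 0.08) and the protease inhibitor Serpinb9 (distance 0.08). Such likeness rests on 2 numbers per gene, and because it uses the brightness of different probes it describes these arrays and not amounts of RNA.

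Twist1 (transcript cluster 6794360), a helix-loop-helix factor of mesoderm and neural crest, had 87.5 without and 119 with TGF-beta, both below the level rule of 124 (log2 difference 0.44, or 0.72 above the median of genes at level). Its 4 probesets were all below the exon-level rule of 265. They had 200, 164, 100.03 and 36.7 in untreated cells and 215, 110, 117 and 57.0 with TGF-beta. The first, the third and the fourth were higher and the second lower, so no direction is read for Twist1. Its paralog Twist2 had no named gene-level cluster. Of the 4 Twist2 probesets, 3 were lower with TGF-beta (1068 to 315, 1094 to 348 and 668 to 171) and the other was higher (2229 to 2623). Their median difference was −1.70 ± 1.02 (SD), and the 3 lower probesets differed by −1.65 to −1.96, or by −1.33 to −1.63 with the trend removed. The probesets of Twist2 thus did not move together.

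The E proteins lay well within 2-fold under every scaling tried. Tcf3 (transcript cluster 6775373) had 1033 without and 1092 with TGF-beta, a log2 difference of 0.08, or 0.35 above the median of genes at level. It was 0.35 after quantile normalization and 0.36 with the trend removed. All its 24 probesets were at level and none was past 2-fold, 13 being higher and 11 lower, from −0.49 to 0.39 (median 0.08 ± 0.25 SD). Its lowest difference was that of a probeset at 548 and 389 and its highest that of one at 533 and 700.1. Tcf4 (transcript cluster 6861850) had 743 and 814, a difference of 0.13, or 0.41 above that median. It was 0.47 after quantile normalization and 0.48 with the trend removed. Its 19 probesets at level, 13 higher and 6 lower, ran from −0.53 to 0.47 (median 0.11 ± 0.25 SD). The corresponding Tcf4 probesets had 683 and 473 and 1586 and 2198. In both, the direction went with the level of the probeset. For Tcf3, 10 of the 12 brighter probesets were higher and 9 of the 12 dimmer ones lower. For Tcf4, 8 of the 9 brighter probesets and 4 of the 9 dimmer ones were higher. The same held less steeply over all 4940 genes with at least 10 probesets at level, in which 34.1% of the brighter and 23.2% of the dimmer probesets were higher. With that trend removed, 20 of 24 Tcf3 probesets and 18 of 19 Tcf4 probesets lay above 0. Tcf12, a further E protein, was at 3236 and 3274, a difference of 0.02.

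The name Tcf3 needed care at exon level. The annotation held 24 probesets under the older symbol Tcfe2a, which are those used above, and 15 under Tcf3. In older mouse nomenclature Tcf3 also stood for Tcf7l1, a factor of the Wnt pathway. The 15 probesets had medians of 127 and 144 in the untreated and TGF-beta arrays, close to the gene-level Tcf7l1 cluster (130.05 and 179) and far from the Tcf3 cluster. They were therefore read as Tcf7l1 and left out of the members. Of them 13 were higher with TGF-beta, with a median difference of 0.41, and 4 were at level.

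Hmga2 (transcript cluster 6777518), the chromatin protein named above, had 3186 without and 3860 with TGF-beta, a log2 difference of 0.28 (1.21-fold), or 0.55 above the median of genes at level. All 9 probesets were at level. Of these, 8 were higher, by 0.25 to 0.62, the brightest of them going from 7348 to 8740 and that with the largest difference from 2418 to 3714. Probeset 4445581 was lower, at 1296 without and 820 with TGF-beta (−0.66). A probeset's index subtracts from its difference the median over the remaining probesets at level of that gene, and at 1 or more in size the probeset was called departing. That of 4445581 was −1.01, just past the rule, and it did not reach the rule with the trend removed, with a pseudocount of 16 or when set against the gene-level difference. A further cluster, annotated to both Hmga2 and Sdccag8, had 150.1 and 108 and was not counted.

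Ets1 (transcript cluster 6987954), a winged-helix factor that acts with other factors on protease and matrix genes, was nearly equal at 1679 and 1651. Its log2 difference of −0.02 became 0.11 after centring, 0.15 after quantile normalization and 0.17 with the trend removed, and lay 0.25 above the median of genes at level. Of its 10 probesets 5 were higher and 5 lower, from −0.51 to 0.19 (median −0.00479 ± 0.20 SD). The probeset with the largest difference in size was also the dimmest (672 and 472). The other 9 lay between −0.18 and 0.19, the highest of them at 2113 and 2416.

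Prrx1 (transcript cluster 6763646), a homeobox factor of mesenchyme, had 386 without and 223 with TGF-beta. It was 1.73-fold lower, a log2 difference of −0.79. Relative to the median of genes at level this was −0.51, 14.9% of genes at level had a still lower difference, and the value was −0.39 both after quantile normalization and with the trend removed. Of its 8 probesets at level 7 were lower and 3 of these at least 2-fold. With the trend removed 6 were below 0, of which 1 was at least 2-fold lower, and 2 were above 0, of which 1 (5434446, 1.01) was at least 2-fold higher. In 4 of the lower probesets, the 3 at least 2-fold lower among them, the level rule was met by the untreated array alone. Of the other 4 at level, 3 were lower. Probeset 5397103 had the largest lower value, 544 without and 142 with TGF-beta (−1.93, index −1.07). Probeset 5434446 went the other way, from 406 to 649 (0.67, index 1.62). Both departed from their gene, and both also did with the trend removed, with a pseudocount of 16 and when set against the gene-level difference. The other 6 probesets at level ran from −1.19 to −0.22, and the dimmer pair had 106 and 5.84 in untreated cells and 112 and 5.30 with TGF-beta. The SD over the 8 probesets was 0.77. The median SD over the 8791 genes with at least 4 probesets at level was 0.33, and 4.82% of them had a larger SD than Prrx1. Among the members an index was taken for 12 probesets of Zeb1, 13 of Zeb2, 9 of Hmga2, 10 of Ets1, 8 of Prrx1, 24 of Tcf3 and 19 of Tcf4. Of these 3 departed in all, which is near the share of 3.64% over all 108356 probesets with an index. The arrays' annotation carried no positions, so the exons behind these probesets are not named.

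**Figure D3:**
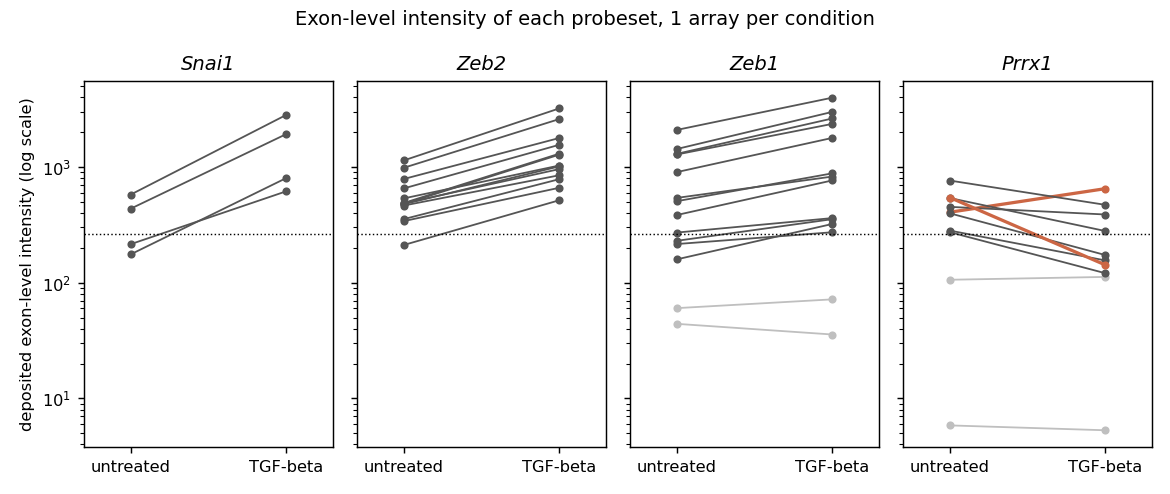
Deposited exon-level intensity (log axis) of each probeset of Snai1, Zeb2, Zeb1 and Prrx1 in the untreated and the TGF-beta array, joined by a line. Orange lines are departing probesets, pale lines lie below the level rule (dotted). All dark lines of Snai1, Zeb2 and Zeb1 slope upwards, and in Prrx1 an orange line from 406 to 649 crosses another from 544 to 142.

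Among the members' paralogs with a named gene-level cluster, none of the 4 at level was past the size rule. Their median was −0.47 (−0.27 over all genes at level). It was −0.15 with the trend removed, against −0.01 over all. Snai3 had 246 and 158 (−0.63) and all of its 3 probesets at level were lower. Ets2 had 4246 and 2785 (−0.61) with all 12 probesets lower, unlike Ets1. Prrx2 had 619 and 492 (−0.33, but 0.08 with the trend removed and 0.06 after quantile normalization). Scrt1, a neuronal relative of Snail, was below the rule (77.6 and 86.6). Hmga1, measured by 2 probesets only, had a median difference of −0.04. Twist2, also without a named gene-level cluster, had a probeset median of −1.70. As given above, 3 of its 4 probesets were at least 2-fold lower and the other was higher.

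Of 7 other EMT factors at level none passed the size rule, and 5 lay above 0, with a median of 0.60. Sox9, a factor of cartilage and of mammary stem cells, had 882 and 1600 (0.86), and all its 8 probesets were higher. Sox4 (0.80), Runx1 (1588 and 2719, 0.78) and the forkhead factor Foxc1 (313 and 474, 0.60) also had all their probesets higher. With the trend removed, Sox9 (1.12), Sox4 (1.19) and Foxc1 (1.03) passed the size rule, as Zeb1 did.

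The Id inhibitors of the E proteins differed more than the E proteins themselves. Of 4 at level, 3 were at least 2-fold lower, against 8.7% of all genes at level. These were Id2 (−2.03), Id1 (−1.89) and Id3 (−1.78), and Id4 was at 0.30. The list's median was −1.84. With the trend removed the same 3 had −1.91, −1.57 and −1.37, where 4.64% of all genes at level were at least 2-fold lower.

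Co-repressors through which Zeb and Snail act showed no member past 2-fold. Of 17 at level 4 lay above 0, and the median of −0.26 was close to the −0.27 of all genes at level, as were −0.04 and −0.01 with the trend removed. The largest differences were those of the polymerase Parp1 (780 and 414, −0.91), the oxidase Loxl2, a Snai1 partner (441 and 729, 0.72), and the Polycomb subunits Eed (−0.63) and Suz12 (−0.59). Loxl2 had all 12 probesets higher, and its difference was 1.13 with the trend removed. The 10 genes at level that act on the stability of the Snail protein also stayed under 2-fold (median −0.21, and −0.03 with the trend removed). Their largest differences were those of the ubiquitin ligase subunit Fbxl5 (588 and 310, −0.92), the kinase Csnk1e (2585 and 4126, 0.67), Fbxo45 (−0.50) and Fbxl14 (−0.41). Protein levels were not measured.

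The 6 Smads and genes of the Hmga2 pathway at level stayed under 2-fold (median −0.33, and −0.04 with the trend removed). The RNA-binding proteins Igf2bp1 (434 and 238, −0.87) and Igf2bp3 (−0.49), the stem cell protein Lin28a (71.5 and 128, 0.83) and Smad3 (1785 and 1419, −0.33) had the largest differences. Lin28a was at level through the TGF-beta array alone, which leaves its size uncertain. Of 10 genes at level in a list of other Ets family members, none passed 2-fold and 4 lay above 0. Within that list Elf1 (−0.61), Ets2, Etv6 (1016 and 1483, 0.55) and Elf2 (−0.48) had the largest differences. The list's median of −0.15 turned to 0.12 with the trend removed and to 0.14 after quantile normalization. The list does not cover the whole family. The Ets-type factors Ehf (−2.45) and Elf3 (−1.58), counted below as epithelial transcription factors, were at least 2-fold lower.

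Many of the genes that Zeb and Snail are known to repress were at least 2-fold lower, though not all of them. Of the 16 at level, 9 passed the size rule as lower and 1 as higher, and the median was −1.17. Over all genes at level 8.7% passed it as lower and 2.28% as higher. By sign alone the list was much like all genes, with 5 of the 16 above 0 against 27.7%. Crb3 (364 and 91.2, −1.98), which is among the 9, and Patj (198 and 119, −0.73) were at level through the untreated array alone. The 6 Crb3 probesets at level did not move together, with 4 lower and 2 higher (median −1.63, SD 1.91). The largest were Rbm47, an RNA-binding protein (2875 and 301, −3.25), the mucin Muc1 (3744 and 393, −3.25), the keratin Krt19 (−2.99) and the plakin Ppl (−2.86). E-cadherin (Cdh1) had 4153 and 1698 (−1.29), with all 18 probesets lower, and the splicing regulator Esrp2 had 1416 and 682 (−1.05). The call of Esrp2 was lost with the trend removed (−0.75), after quantile normalization (−0.76) and after centring (−0.91), and with the trend removed the list held 8 genes at least 2-fold lower. The higher gene was the claudin Cldn4 (241 and 1530, 2.66), which had 2 probesets at level. The list's median was −0.95 with the trend removed and −0.17 without the level rule, which adds 8 dim genes. Of 10 epithelial transcription factors at level, 5 were at least 2-fold lower and none higher, with a median of −1.02. Hnf4a, a factor of liver and gut epithelium, had 3732 and 603 (−2.63), the Ets-type factor Ehf had 342 and 61.6 (−2.45), the forkhead factor Foxa2 had 1448 and 326 (−2.15), and Elf3 had 497 and 165 (−1.58). Ovol2, which can repress Zeb1, had 109 and 135 (0.30). That list's median was −0.88 after centring, −0.81 after quantile normalization, −0.79 with the trend removed and −0.66 without the level rule. Ehf and Ovol2 were each at level through 1 array only.

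Mesenchymal genes of the same programme lay on the other side. Among 12 at level, 6 passed the size rule as higher (2.28% of all genes at level) and none as lower (8.7% of all). The median was 1.13 (0.61 without the level rule). Tenascin C (Tnc, 218 and 2755, 3.65), fibronectin (Fn1, 1013 and 7731, 2.93), the integrin subunit Itga5 (2.49) and smooth muscle actin (Acta2, 1.88, 77.1 and 286) were the largest. Of the 6 higher genes, Acta2 and the protease Mmp9 (75.2 and 185, 1.29) were at level through the TGF-beta array alone. Vimentin (Vim) was bright and nearly equal at 12687 and 12991 (0.03, but −0.04 with the trend removed).

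**Figure D4:**
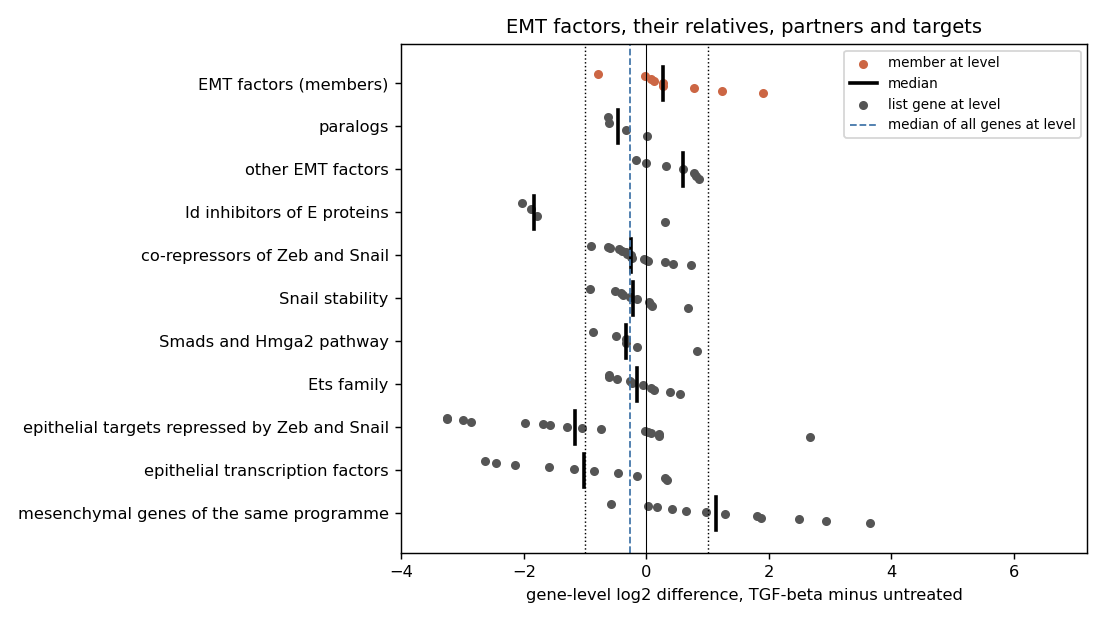
Gene-level log2 difference (TGF-beta minus untreated) of the 9 members at level (orange) and of genes at level in 10 lists of relatives, partners and targets (grey), with each median as a black bar. The dashed line is the median of all genes at level (−0.27) and dotted lines mark 2-fold. Members spread from −0.79 to 1.90, with 3 Id genes and most epithelial genes to the left and mesenchymal genes to the right.

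Markers of an epithelial line were present in part. The keratins Krt18 (8494 and 9785) and Krt8 (13 probesets, with medians of 11986 and 13820) were bright, as was Cdh1, but Epcam (68.5 and 62.2) and Cldn7 (88.1 and 92.7) lay below the level rule. Of markers of other cell types, 1 of 6 for fibroblasts (Col1a1), 1 of 4 for basal and myoepithelial cells (Acta2), 1 of 3 for leukocytes (Cd68), 1 of 3 for adipocytes (Plin1) and none of 3 for endothelium were at level. These counts, and the calls of Epcam and Cldn7, use the gene-level rule. Some genes below it had exon-level probesets at level, among them Cldn7 (4), Col3a1 (17), Krt14 (8) and Krt5 (7). The summed gene-level intensity of the fibroblast markers was 440.4 without and 734 with TGF-beta, and that of the leukocyte markers 393 and 295. The sums were 283 and 515 for the basal, 190 and 294 for the adipocyte and 139 and 205 for the endothelial markers. Single genes weighed much in them: Acta2 had 77.1 and 286, Col1a1 199 and 389, and Plin1 156 and 259. Acta2 and Col1a1 also belong to the mesenchymal list, so these sums do not measure shares of cell types. No marker was listed at 0, and the part of these genes in the members' differences was not tested.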

How the data were processed

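Values of 4 deposited columns were used, 2 with 23332 transcript clusters (gene level) and 2 with 229581 probesets (exon level). The deposited values are intensities on a linear scale, summarised by the authors per cluster or probeset. Core probesets were analysed, per the series' design text. The labels' protocols name RNeasy columns and biotin labelling by Affymetrix protocols. The sources used here do not name the background correction, normalization, summary method, software or build. No detection value was used, and dim signal may be background. Precision is limited by the number of arrays, 1 per condition.

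Genes were named from the platform annotation and updated through a RefSeq table of GRCm38.p6, used for names and promoter windows. Left unnamed were 1019 clusters with more than 1 symbol and 7317 with no symbol. Where a symbol had several clusters, the brightest was used. Differences, level rule and size rule are as stated with the results, and were computed with Python 3.11.15, pandas 2.3.3 and numpy 2.4.6. The trend was a lowess curve (fraction 0.2, statsmodels 0.14.6). The code was tested on simulated data. An index needed at least 5 probesets at level.

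All 10 members were named with their values, as were all measured paralogs and Id genes, the 4 largest differences of each other list, the nearest genes, and Cdh1, Esrp2, Vim and Fn1. Other genes named (Cldn4, Crb3, Patj, Ovol2, Mmp9, Tcf7l1 and those of the closing observations) were picked with their values in view, and the cell markers form lists of their own. The members and lists were chosen with earlier results of these data known. Alternatives were other level rules, a pseudocount of 16, centring, quantile normalization, trend removal, medians of probesets, means over all clusters of a symbol and another reference for the index.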

Additional observations from a re-analysis of the deposited data

How the results depend on the processing

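Each condition had 1 array, so no result could be checked by leaving out a replicate. No paired analysis was possible because each condition held 1 array. The counts of members at least 2-fold higher (2) and lower (0) had the same value under other level rules, a pseudocount of 16, centring and medians of probesets. After quantile normalization and with the trend removed Zeb1 joined, for 3 higher, against 3.7% and 3.62% of all genes at level. The members' median ranged from 0.23 to 0.48 over the alternatives. The number of member probesets at least 2-fold higher was 16 as reported, but 25 after quantile normalization and 26 with the trend removed (6.44% and 6.61% of all named probesets at level), and trend removal moves the median of all named probesets at level from −0.23 to −0.04. Departing probesets numbered 3 as reported and 1 with the level rule at the 75th percentile, which leaves no Prrx1 probeset at level. They numbered 2, both of Prrx1, with a pseudocount of 16, with the trend removed and against the gene-level difference. Ets1 changed sign at gene level (0.11 after centring, 0.15 after quantile normalization, 0.17 with the trend removed), and the median of its probesets did so too (0.13, 0.10 and 0.11, and 0.0365 with the 75th percentile rule). The median of the Ets family list turned to 0.0107 without a level rule, 0.14 after quantile normalization and 0.12 with the trend removed. Member probesets at least 2-fold lower, all of Prrx1, went from 3 to 1 with the trend removed. The epithelial target list's median was −0.97 after quantile normalization. Of 59 recomputed gene-level differences of members, 54 kept their direction and their side of 2-fold. The exceptions were Zeb1, which passed 2-fold under quantile normalization and trend removal, and the 3 sign changes of Ets1. The 59 include a mean over all clusters of the symbol for each of the 10 members. That value could not differ, because each member had 1 cluster. Signal near the lower end limits Twist1 most.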

Other observations

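Further genes of the lists gave these values. The polarity protein Llgl2 had 593 without and 199 with TGF-beta (−1.57) with all 23 probesets lower, and occludin (Ocln) had 549.8 and 171 (−1.68) with all 9 lower. The plakophilins Pkp2 (879 and 897, 0.03) and Pkp3 (230.4 and 227, −0.02) were nearly equal, although both belong to the same list of repressed epithelial genes. The growth factor receptor Fgfr1 had 541 and 1891 with all 24 probesets higher. N-cadherin (Cdh2), a mesenchymal cadherin, was bright already in untreated cells and differed by 0.42 (3043 and 4057), with 18 of 19 probesets higher. S100a4 was the mesenchymal gene that was at level and below 0 at gene level, at 3826 and 2564 (−0.58), with all 3 probesets lower. Spp1, of the same list, had no named gene-level cluster. All its 12 probesets were at level and lower, with a median of −0.23, close to the −0.23 of all named probesets at level. The histone demethylase Kdm1a, a Snai1 partner, was higher in 18 of 22 probesets (856 and 1062, 0.31).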
